A study of Homo sapiens with 26 samples.

Results

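SMAD4 and 8 genes near it on the long arm of chromosome 18 were followed in 26 messenger RNA libraries of pancreatic ductal adenocarcinoma (PDAC) cells, to see how far an absence of SMAD4 message extended to its neighbours. The 9 genes, of 41078 in the deposited table, were chosen by symbol and position: in map order MAPK4, MRO, ME2, ELAC1, SMAD4, MEX3C, DCC, MBD2 and POLI. The libraries came from single cell-derived cell lines (SCDCLs), each grown from 1 cell by limiting dilution, so each library stands for 1 clone and none was sequenced again. The labels give 12 SCDCLs as BxPC3, described there as classical-like, and 14 as Panc-1, described as basal-like. Cells of both parental lines were kept in high-glucose DMEM with serum. Every library carries gemcitabine as its treatment label, but the study's methods describe this nucleoside drug only in separate viability assays and describe no treated cells for RNA. No untreated control was labelled, and the response of each clone to the drug was not analysed here.

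SMAD4 is the common mediator through which receptor-activated SMADs carry TGF-beta and BMP signals to the genome. It is deleted or mutated in many pancreatic carcinomas, and genes beside it can be lost in the same deletion. BxPC3 is known to lack SMAD4 by homozygous deletion, whereas Panc-1 is known to express it. The labels were therefore checked against this gene first. Levels are given as TPM, the length-corrected share of a gene among all transcripts of a library. SMAD4 was under 1 TPM in 12 libraries, of which 5 were labelled BxPC3 and 7 Panc-1. It was higher in the other 14, of which 7 were labelled BxPC3 and 7 Panc-1. SMAD4 thus went against the label in 14 libraries, and the labels are used below only as labels. Because the division into 12 and 14 libraries was made on a measured value, differences between them are given as levels and ranges with no test.

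The 12 libraries held 27144920 to 34945608 estimated counts and the 14 others 27035724 to 32601392, so 3 counts corresponded to 0.0858 to 0.111 CPM, the share of a gene in the total count. No pair of libraries was identical. Epithelial origin was checked with KRT8, KRT18, KRT19, EPCAM and CDH1, of which 4 of 5 reached 1 TPM in all 26 libraries. The division by SMAD4 was also one by several markers of cell state. The sets of 12 and 14 equal in size the libraries labelled BxPC3 and Panc-1, so differences between libraries without and with SMAD4 cannot be told apart here from differences between the parental lines, should the labels be crossed. The summed level of VIM, ZEB1 and CDH2 was 4.05 to 80.0 TPM in the 12 libraries and 3107 to 4563 TPM in the 14. VIM, at 3047 to 4526 TPM, made up most of the sum in the 14. VIM and ZEB1 were each lower without overlap in the 12, while CDH2 overlapped, at 1.31 to 7.45 against 3.35 to 184 TPM. CDH1, the epithelial cadherin, was at 90.8 to 198 against 0.338 to 7.74 TPM, and EPCAM was also higher without overlap in the 12. KRT8, KRT18 and KRT19 overlapped. In the 12, KRT8 and KRT18 had the lower median, at 461 against 2053 and 521 against 1598 TPM, and KRT19 the higher. Of the 3 leukocyte markers, PTPRC stayed at or below 0.535 TPM and CD3E at or below 0.393 TPM in every library, while CD68, a lysosomal protein of macrophages, was at 5.27 to 26.9 TPM in the 12 and 42.5 to 141 TPM in the 14. Of the 3 fibroblast markers, LUM stayed at or below 0.243 TPM and DCN at or below 1.07 TPM, while COL1A1 reached 26.5 TPM in the 12 and 38.5 TPM in the 14. Both endothelial markers had message, PECAM1 up to 6.07 and 5.38 TPM, and CDH5 at 1.04 to 13.6 TPM in the 12 libraries and at most 0.0427 TPM in the 14. The part of these differences in the results below was not tested.

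The promoters of the 4 genes whose message was absent together are shown because they are separate start regions within one stretch of the chromosome. Each run holds the 250 bases before and 50 bases after a RefSeq transcript start (GRCh38.p14) and is written 5′ to 3′ on the strand of the gene. Capitals mark the letters of 3 promoter motifs, searched on both strands. The motif bound by SP factors was searched as GGGCGG. The motif bound by the factor NF-Y was searched as CCAAT. The core motif bound by TBP was searched as TATAAA. Matches that touch or overlap run together. All 9 genes had an entry.
ME2: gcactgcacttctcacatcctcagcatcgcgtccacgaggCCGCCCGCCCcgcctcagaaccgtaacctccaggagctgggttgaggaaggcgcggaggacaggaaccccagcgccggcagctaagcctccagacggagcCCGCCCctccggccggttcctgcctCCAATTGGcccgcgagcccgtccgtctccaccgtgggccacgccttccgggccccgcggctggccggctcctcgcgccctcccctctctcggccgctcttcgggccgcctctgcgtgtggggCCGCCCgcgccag
ELAC1: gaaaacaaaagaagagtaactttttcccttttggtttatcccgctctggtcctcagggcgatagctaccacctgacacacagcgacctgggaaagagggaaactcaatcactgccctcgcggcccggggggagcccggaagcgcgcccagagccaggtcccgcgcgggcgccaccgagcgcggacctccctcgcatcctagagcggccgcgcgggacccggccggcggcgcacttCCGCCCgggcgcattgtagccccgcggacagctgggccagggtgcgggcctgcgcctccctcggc
SMAD4: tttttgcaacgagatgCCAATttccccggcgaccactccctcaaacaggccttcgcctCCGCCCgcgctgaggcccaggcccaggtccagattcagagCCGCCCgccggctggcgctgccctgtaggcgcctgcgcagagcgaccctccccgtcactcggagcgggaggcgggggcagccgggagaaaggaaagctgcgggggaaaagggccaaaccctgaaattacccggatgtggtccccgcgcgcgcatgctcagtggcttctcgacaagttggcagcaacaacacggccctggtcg
MEX3C: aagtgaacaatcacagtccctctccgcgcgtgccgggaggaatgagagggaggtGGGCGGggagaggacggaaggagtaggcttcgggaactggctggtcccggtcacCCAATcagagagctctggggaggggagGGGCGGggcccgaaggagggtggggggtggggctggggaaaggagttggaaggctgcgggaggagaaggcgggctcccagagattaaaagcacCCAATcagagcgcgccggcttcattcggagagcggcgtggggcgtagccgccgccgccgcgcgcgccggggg

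The ME2 run lay at chr18:50878868-50879167 on the plus strand and was 73.7% G and C with 35 CpG dinucleotides. ELAC1 followed at chr18:50967790-50968089 on the plus strand, with 68.7% G and C and 33 CpG. The SMAD4 run, chr18:51029963-51030262 on the plus strand, lay within the SMAD4 gene as annotated in GENCODE, and was 66.7% G and C with 28 CpG. MEX3C was read from the minus strand at chr18:51197632-51197931, also within its GENCODE gene, with 68.7% G and C and 27 CpG. GGGCGG was present in all 4, as in 45.0% of 35116 RefSeq promoters of this length. CCAAT was present in ME2, SMAD4 and MEX3C, as in 34.6% of promoters. TATAAA was found in none of the 4 and in 11.5% of promoters. All 4 were richer in G and C than the median promoter (58.7%).

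Messages of 4 adjacent expressed genes, ME2, ELAC1, SMAD4 and MEX3C, were at or near 0 in the same 12 SCDCLs and present in the other 14. Expressed genes on both sides, SKA1 toward the centromere and, at low counts, DCC toward the telomere, had message in all 26. A gene was called off in the 12 and on in the 14 where every one of the 12 was under 1 TPM and every one of the 14 at 1 TPM or more. Apart from SMAD4, which defined the division, 3 of the 8 members met this description, against 2.10% of the 14763 genes with a mean of at least 1 TPM. The same 3 members were lower in all 12 libraries than in any of the 14, which held for 15.8% of those genes. None was higher without overlap, which held for 14.5% of them. These counts take all 8 neighbours, of which 6 had a mean of at least 1 TPM. The members were chosen with earlier results of these data known, so the counts are a description only.

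**Figure D1:**
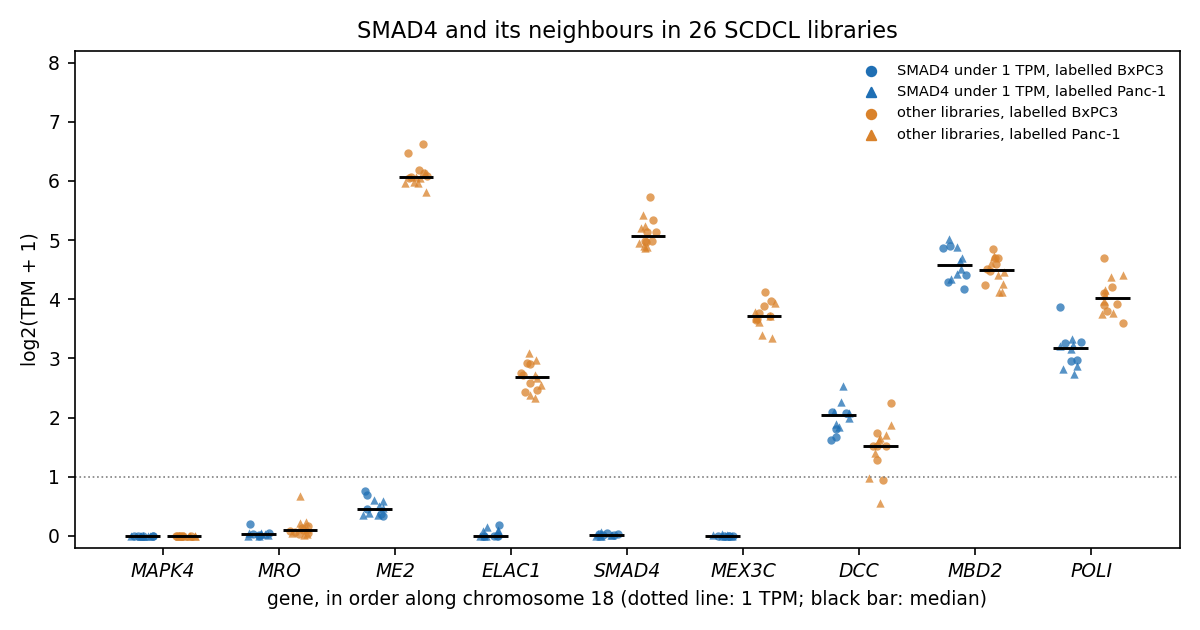
Level of each of the 9 genes in 26 SCDCL libraries, as log2(TPM + 1), in map order from left to right. Each point is 1 library, colour marks SMAD4 under 1 TPM (12 libraries) or not (14), shape marks the label, and black bars are medians. ME2, ELAC1, SMAD4 and MEX3C separate by colour and not by shape, while MBD2 levels overlap.

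SMAD4 (ENSG00000141646, chromosome 18, 51028528 to 51085045, plus strand, GRCh38) was at 0, 0.0125 and 0.0440 TPM in the lowest, median and highest of the 12 libraries. In the 14 others it was at 28.1, 32.5 and 52.2 TPM. The highest value among the 12 was 0.157% of the lowest among the 14. In estimated counts, the 12 libraries held at most 3.98 SMAD4 counts each, with 3 libraries at 0, and the 14 held 2108 to 3853. The 12 libraries together held 14.9 counts against 36520 in the 14, which was 2178-fold lower in CPM over the summed libraries. These counts were scaled from TPM, so the fold is not separate from that in TPM and is not one of reads. The mean effective transcript length that the authors' quantification gave SMAD4 differed, with a median of 6564 bases in the 12 and 1868 in the 14. A second gene model annotated as protein-coding, ENSG00000267699, overlaps both ELAC1 and SMAD4 (50968019 to 51058144). It was at 0 in all 12 libraries and at 0, 0.294 and 0.765 TPM in the 14, where 3 libraries were at 0. Adding it to SMAD4 gave 28.4, 33.1 and 52.2 TPM in the 14, so the split of reads between these overlapping models changed the SMAD4 level little.

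ELAC1, a short-form tRNase Z, lies 40.4 kb to the centromeric side of SMAD4 on the same strand (ENSG00000141642, 50967991 to 50988121). It was at 0, 0 and 0.142 TPM in the 12 libraries and at 4.01, 5.47 and 7.51 TPM in the 14. It was the least abundant of the 4, at 77.7 to 168 counts per library in the 14. The 12 held at most 2.76 counts each, 7 of them at 0, and 9.75 counts in all against 1562, which was 142-fold lower in CPM. The ranges did not overlap.

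ME2, the mitochondrial NAD-dependent malic enzyme that turns malate into pyruvate, ends 13.7 kb before ELAC1 (ENSG00000082212, 50879080 to 50954257, plus strand). It was at 0.257, 0.373 and 0.692 TPM in the 12 libraries and at 55.5, 65.9 and 98.2 TPM in the 14. ME2 was thus the most abundant of the 4 where present, and the ratio of medians was 177-fold. Unlike the other 3 genes, it was not at 0 in any library. The 12 held 14.7 to 35.3 estimated counts each, above the 3-count floor, against 2814 to 5066. The effective length that the authors' quantification gave ME2 also differed, at 2827, 3323 and 4244 bases in the 12 libraries and 1823, 1871 and 1925 bases in the 14. The few counts in the 12 were therefore assigned to a longer mean transcript than those in the 14.

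MEX3C, an RNA-binding E3 ubiquitin ligase, has its nearer edge 89.5 kb beyond SMAD4 and is read from the other strand (ENSG00000176624, 51174550 to 51218333). Starts and ends of genes are given throughout as map coordinates, whatever the strand. MEX3C was at 0, 0 and 0.0255 TPM in the 12 libraries and at 9.13, 12.1 and 16.4 TPM in the 14. Of the 12, 9 were at 0 and none held more than 2.02 counts, whereas the 14 held 658 to 1303. The summed counts were 4.01 against 13240, which was 2936-fold lower in CPM. A reverse-strand gene was thus at or near 0 together with 3 forward-strand genes. In bulk libraries, fewer cells with a message and less message per cell cannot be told apart.

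Among the 14 libraries with message, the 4 genes varied little. The highest library was 1.77 times the lowest for ME2, 1.87 times for ELAC1, 1.86 times for SMAD4 and 1.80 times for MEX3C. MBD2, which is outside the stretch of the 4 off genes, spanned 1.70 times over the same 14 libraries. None of the 14 had an intermediate level of any of the 4.

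MAPK4, an atypical mitogen-activated protein kinase, and MRO, maestro, lie between SKA1 and ME2 but say little about the boundary. MAPK4 (ENSG00000141639, 50560087 to 50731826) was at 0 counts in all 26 libraries. MRO (ENSG00000134042, 50795120 to 50825402, minus strand) ends 53.7 kb before ME2. It was at 0, 0.0222 and 0.145 TPM in the 12 libraries and at 0.0126, 0.0688 and 0.594 TPM in the 14. No library held more than 9.68 MRO counts among the 12 or 49.2 among the 14, and the ranges overlapped. Counts were present in 9 of the 12 libraries and in all 14 others. MAPK4 could show no difference at this depth. The MRO median was 3.10 times lower in the 12, with median estimated counts of only 1.63 against 5.41, and was not tested.

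On the telomeric side, DCC, the netrin-1 receptor, starts 1122 kb beyond the end of MEX3C (ENSG00000187323, 52340197 to 53535899, plus strand). It was at 2.07, 3.12 and 4.77 TPM in the 12 libraries and at 0.467, 1.87 and 3.75 TPM in the 14. DCC reached 1 TPM in all 12 libraries without SMAD4 and in 11 of the 14 with it, and the ranges overlapped. The estimated counts, which were scaled from TPM, were only 13.7 to 35.4 in the 12 and 3.32 to 31.1 in the 14. The effective lengths were only 299 to 454 and 308 to 328 bases, so these counts were assigned mainly to short transcript models rather than to the full-length receptor message.

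MBD2, a reader of methylated CpG, lies beyond DCC (ENSG00000134046, 54151606 to 54224669, minus strand) and had the closest levels in the 2 sets among the expressed members. It was at 17, 23 and 31.5 TPM in the 12 libraries and at 16.3, 21.6 and 27.7 TPM in the 14. The ranges overlapped almost entirely.

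POLI, the translesion DNA polymerase iota, is the farthest member (ENSG00000101751, 54269517 to 54321266, plus strand). It was at 5.66, 8.07 and 13.6 TPM in the 12 libraries and at 11.1, 15.3 and 25.1 TPM in the 14, with a median 1.90 times lower in the 12. Libraries are numbered as in the labels, and the overlap rested on library 24, labelled BxPC3, at 13.6 TPM. Without it the highest of the remaining 11 was below the lowest of the 14, at 11.1 TPM in library 17, and 4 members in place of 3 were lower without overlap. On the log2(median TPM + 1) scale, the 12 differed from the 14 by -5.61 for ME2, -2.69 for ELAC1, -5.05 for SMAD4, -3.72 for MEX3C, -0.85 for POLI, -0.06 for MRO, 0.09 for MBD2 and 0.52 for DCC.

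The extent was then read from all listed genes. The 4 off genes span 339 kb, from 50879080 to 51218333. SKA1, a kinetochore protein gene, ends 485 kb before them and had 2.93, 5.10 and 10.6 TPM in the 12 libraries and 9.01, 13.5 and 18.6 TPM in the 14. The ranges of SKA1 overlapped. From the end of SKA1 to the start of DCC is 1946 kb. With DCC set aside for its few counts on short models, the next expressed gene is MBD2, at 54151606, which leaves 3757 kb from the end of SKA1. The stretch from SKA1 to DCC holds 17 listed genes, 7 annotated as protein-coding, and the 10 of other types, none above 0.300 TPM in any library, give no further mark. RNA levels alone do not show whether DNA is missing.

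Within 5 Mb of SMAD4 lay 45 genes annotated as protein-coding. The off pattern was met by 4 of them, ME2, ELAC1, SMAD4 and MEX3C, and the reverse pattern by 0. A further 20 were at 1 TPM or more in all 26 libraries and 10 were under 1 TPM in all 26. The remaining 11 crossed 1 TPM in some libraries of one set or both.

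**Figure D2:**
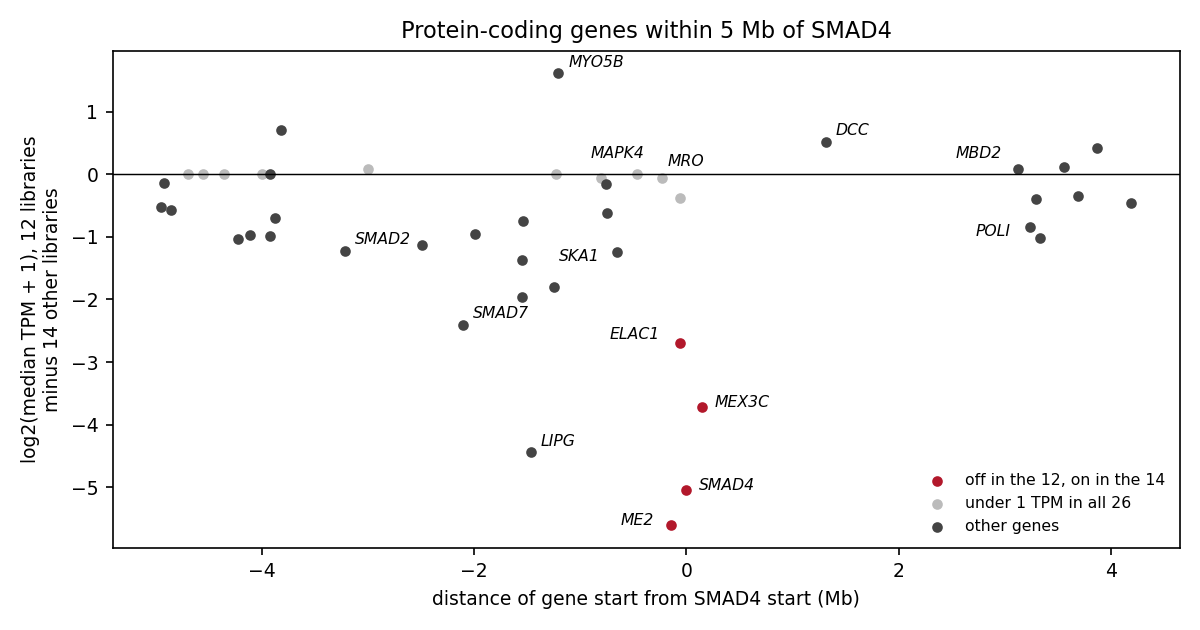
Difference in log2(median TPM + 1), 12 libraries with SMAD4 under 1 TPM minus 14 others, against the distance of each gene start from the SMAD4 start, for 45 protein-coding genes within 5 Mb. The 4 off genes (red) are contiguous, and most of the other expressed genes on the centromeric (left) side lie below 0.

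Outside the 4 off genes, many expressed neighbours were lower but not absent. Of 27 such genes within 5 Mb with a mean of at least 1 TPM, 23 had a lower median in the 12 libraries, and 13 (48.1%) were lower without overlap. The median difference was -0.85 on the log2 scale, against -0.0045 for 12727 protein-coding genes of the other chromosomes, of which 15.7% were lower without overlap. Within 5 Mb the 2 sides were unlike. Toward the centromere the median of 20 genes was -0.98 with 12 lower without overlap, and toward the telomere the median of 7 genes was -0.35 with 1, C18orf54, lower without overlap. The contrast depended on this window. Just beyond it toward the telomere, TXNL1 (-0.97), WDR7 (-0.92), FECH (-1.77) and NARS1 (-1.36) had lower medians. ATP8B1 (0.22) and NEDD4L (0.39), which follow them, had higher medians. Neighbouring genes are not independent of each other, and these values carry no test.

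The centromeric genes included a pair of other SMAD genes. SMAD2, a receptor-activated SMAD, starts at -3.22 Mb from the SMAD4 start, negative values being toward the centromere, and was at 23.8, 32.1 and 37.8 TPM in the 12 libraries and at 57.7, 76.2 and 102 TPM in the 14. SMAD7, an inhibitory SMAD at -2.11 Mb, was at 1.90, 2.76 and 4.88 against 12.3, 18.9 and 28.7 TPM. Neither overlapped, and neither was off. LIPG, endothelial lipase, was lower by the most among the genes that were not off, at 3.02, 4.86 and 13.1 against 39.4, 126 and 216 TPM. MYO5B, a motor of apical recycling endosomes, went the other way, at 2.37, 3.66 and 4.48 against 0.173, 0.525 and 1.18 TPM. MBD1 and CXXC1, CpG-binding protein genes between MYO5B and SKA1, overlapped between the sets.

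Along the whole chromosome, the lower medians were not limited to the surroundings of SMAD4. Over 10 Mb stretches from the short-arm end, the median log2 difference was -0.09, 0.23, -0.15 and 0.09 in the first 40 Mb. It was -0.95 from 40 to 50 Mb and -0.92 from 50 to 60 Mb. The stretch from 50 to 60 Mb holds SMAD4 and the other off genes near it, all counted in its median. The median was 0.81 from 60 to 70 Mb and -1.50 in the last stretch, from 70 to 81 Mb, where 15 of 22 genes were lower without overlap. The median over all 175 chromosome 18 genes was -0.35, the lowest but 1 of the 23 chromosomes, of which the 22 others ranged from -0.38 to 0.47. Of the 175 genes, 29.1% were lower without overlap, the highest share of any chromosome, followed by chromosome 12 at 27.2%. Besides the 4 neighbours, 2 genes far from SMAD4 were off in the 12 and on in the 14, namely EMILIN2, which starts at -48.2 Mb from the SMAD4 start, and KLHL14, at -18.4 Mb.

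**Figure D3:**
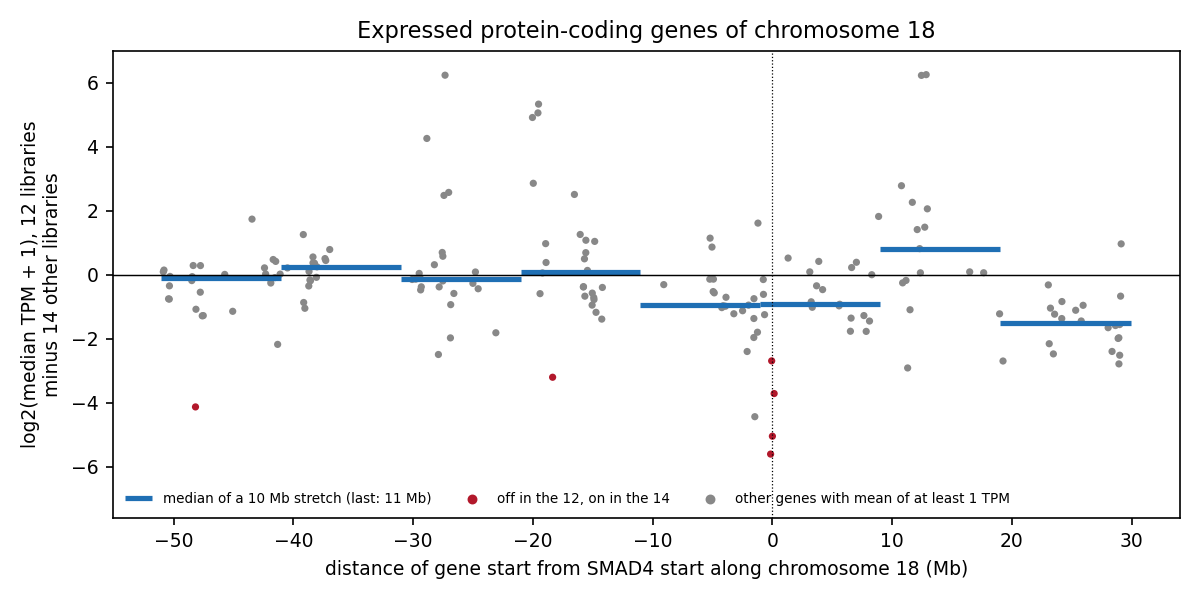
Difference in log2(median TPM + 1), 12 libraries minus 14 others, for 175 protein-coding genes of chromosome 18 with a mean of at least 1 TPM, against distance from SMAD4 in Mb. Blue bars are medians over stretches of 10 Mb (the last of 11 Mb) and red points are the 6 genes off in the 12 and on in the 14. Medians are lowest in the stretch that holds SMAD4, in the stretch before it and at the long-arm end.

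The shift around SMAD4 was shared by the libraries of each set. For the 27 expressed neighbours that were not off, each library's median log2 deviation from its own set's gene medians ranged from -0.19 (library 26) to 0.07 (library 7) among the 12, with an SD of 0.0739. Among the 14 it ranged from -0.15 (library 9) to 0.28 (library 20), with an SD of 0.117. These deviations were smaller than the median difference between the sets.

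Other SMAD genes were given as the pathway in which SMAD4 acts. Of 7 listed, 3 were lower without overlap (SMAD2, SMAD6 and SMAD7), 0 were higher, and 4 overlapped (SMAD1, SMAD3, SMAD5 and SMAD9), with a median difference of -0.38 against -0.02 for all genes with a mean of at least 1 TPM, of which 15.8% were lower and 14.5% higher without overlap. SMAD2 and SMAD7 are the centromeric neighbours of SMAD4 described above. SMAD6, an inhibitory SMAD on chromosome 15, was at 0.539, 1.47 and 4.79 TPM in the 12 libraries and at 5.18, 14.3 and 21.3 TPM in the 14. The ranges came close, with 4.79 against 5.18 TPM at the edge. SMAD3, the receptor-activated partner in TGF-beta signalling, was the most abundant of the family, at 57.3, 159 and 249 against 154, 188 and 211 TPM.

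Of 11 known TGF-beta or BMP target genes, 4 were lower without overlap (15.8% of all genes), 0 were higher (14.5%) and 7 overlapped, with a median difference of -0.09. CDKN2B, 1 of the 7, held at most 1.00 count in any library and could not separate the sets. CCN2, a matricellular growth factor, was at 8.70, 25.2 and 52.7 TPM in the 12 libraries and at 70.2, 145 and 404 TPM in the 14. The other 3 were ID2 and ID3, BMP-responsive inhibitors of DNA binding, and LTBP2. ID2 was also off in the 12 (at most 0.759 TPM) and on in the 14 (at least 1.16 TPM), as were 2.10% of all genes. ID1, of the same family, had the higher median in the 12, at 414 against 152 TPM, and overlapped. Some of the cell-state markers above (VIM, ZEB1, CDH1 and EPCAM) separated the same libraries, and their part in these differences was not tested.

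Paralogues of the off neighbours were examined after values had been seen. ME3, a mitochondrial malic enzyme, was lower without overlap in the 12 libraries, at 3.65, 6.66 and 12.4 against 23.6, 39.8 and 52.1 TPM. The cytosolic enzyme ME1 overlapped, with medians of 23 and 25.7 TPM. ELAC2, the long-form tRNase Z, was higher without overlap, at 83.4, 97.9 and 132 against 39.99, 63.4 and 76.5 TPM. MEX3A and MEX3B, of the MEX3C family, were lower without overlap, with medians of 1.17 against 7.08 and 0.195 against 5.72 TPM. MEX3B, on chromosome 15, was also off in the 12 (at most 0.370 TPM) and on in the 14 (at least 3.09 TPM). That pattern was met by 2.10% of all genes with a mean of at least 1 TPM. MEX3D overlapped, with medians of 28.7 and 42.9 TPM. Of all genes with a mean of at least 1 TPM, 15.8% were lower and 14.5% higher without overlap. ELAC2 was higher in the libraries with ELAC1 at or near 0, and a link between them was not tested. Where ME2 was near 0, no malic enzyme gene was higher without overlap.

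**Figure D4:**
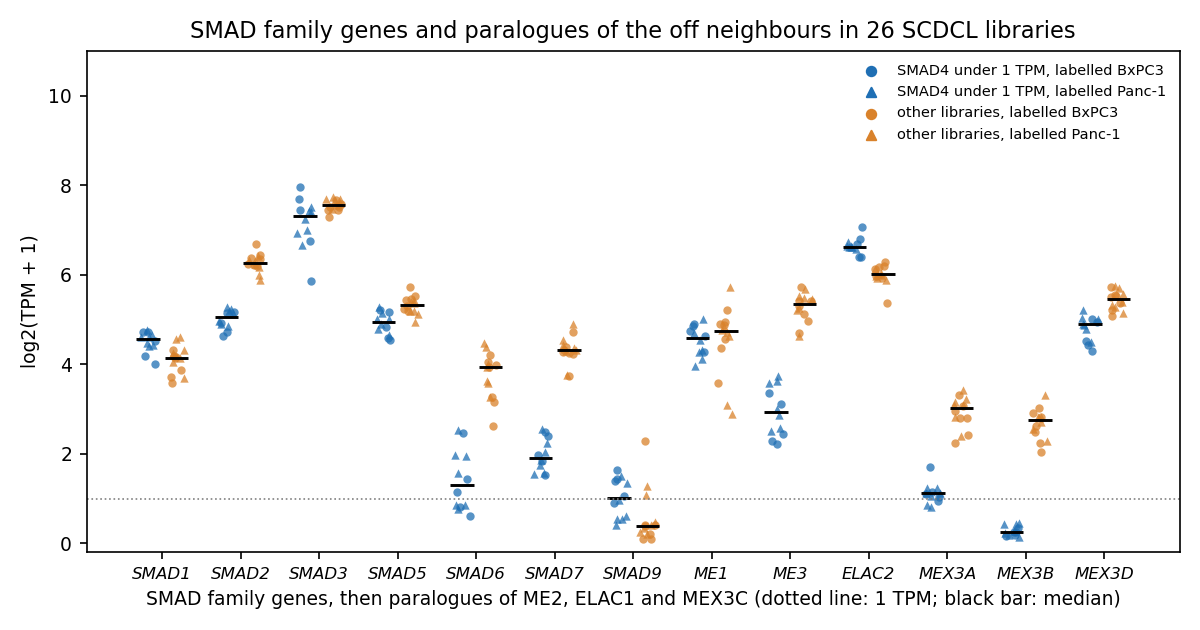
Level of 7 SMAD family genes and 6 paralogues of ME2, ELAC1 and MEX3C in 26 SCDCL libraries, as log2(TPM + 1). Each point is 1 library, colour marks SMAD4 under 1 TPM (12) or not (14), shape marks the label, and black bars are medians. ELAC2 is the only gene shown whose 12 values all lie above the other 14.

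By the root mean square difference of log2(TPM + 1) over 26 libraries, MGAT5B, on chromosome 17, was the gene most like SMAD4, at 0.244. It was followed by DDX43 (0.310) and RBM24 (0.324), both on chromosome 6, SPART on chromosome 13 (0.351) and SDK1 on chromosome 7 (0.377). Among the neighbours, ME2 ranked 56 (0.804), MEX3C 113 (1.04) and ELAC1 466 (1.81). The measure uses the level as well as the pattern, so a neighbour with another level ranks lower.

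The labelled lines were compared by edgeR's quasi-likelihood test on rounded estimated counts, 12 libraries labelled BxPC3 against 14 labelled Panc-1. Of 16008 genes tested, 0 were called at an adjusted p under 0.05 (0%), 367 had an unadjusted p under 0.05, and DESeq2 called 2, neither of them a member. Of the 9 members, 7 entered the test and 0 were called. The log2 difference, Panc-1 minus BxPC3, was -0.34 for SMAD4 (SE 1.30), -0.20 for ELAC1 (SE 1.05), -0.45 for ME2 (SE 1.06) and -0.41 for MEX3C (SE 1.29), each with a Benjamini-Hochberg adjusted p of 1.00 in edgeR. The tested members outside the stretch of the off genes had smaller errors, with 0.17 for DCC (SE 0.263), -0.02 for MBD2 (SE 0.107) and -0.13 for POLI (SE 0.226). Both labels held libraries with and without the 4 messages, so the test between labels does not bear on differences between the sets.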

How the data were processed

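The 26 libraries were poly-A enriched and strand-specific. The authors quantified reads with kallisto 0.46.1 against Ensembl 103 (GRCh38) and deposited TPM, estimated counts scaled from TPM and mean transcript length to the library total, and mean effective lengths (other values, in bases). A further 780 deposited columns of resampled counts were not used. Gene IDs were matched to GENCODE 44 (same build), giving symbols for 36315 of 41078 genes.

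Groups came from the labels. The division at 1 TPM of SMAD4 is a description. Members and gene lists were chosen with earlier results of these data known. Named genes were the members, genes off in one set and on in the other within 5 Mb, genes overlapping a member, the nearest gene on each side at 1 TPM or more in each of the 12 libraries, the listed SMAD, target and marker genes, and the 5 genes most like SMAD4. Of the target list, 1 gene is not reported here and is left out of its counts. LIPG, MYO5B, MBD1, CXXC1, C18orf54, EMILIN2, KLHL14, the paralogues and the genes of the runs on chromosomes 10 and 21 were named after their values had been seen. So were TXNL1, WDR7, FECH, NARS1, ATP8B1 and NEDD4L.

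Medians were compared as log2(TPM + 1), and non-overlap was counted where the mean over libraries reached 1 TPM. Labels were tested with edgeR 4.0.16 (filterByExpr, TMM) on rounded counts, checked on simulated data, with DESeq2 1.42.0 as an alternative (R 4.3.3, Python 3.11.15, pandas 2.3.3). Each clone had 1 library, so p-values measure the spread between clones of a label. Alternatives changed the pseudocount, filter, threshold, window, scaling and libraries. For messages near 0, both counting error and the division of reads among similar transcripts limit the precision.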

Additional observations from a re-analysis of the deposited data

How the results depend on the processing

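The 4 genes off in the 12 libraries and on in the 14 were also found within 2 or 10 Mb and with any library left out (4 to 4, chosen after seeing the data). With 0.1 TPM as the level of an on gene the number was 2 (SMAD4 and MEX3C), because ME2 exceeded 0.1 TPM in all 12 and ELAC1 in some. With 0.5 TPM it was 3 (without ME2), and with 5 TPM it was 4, SMAD7 taking the place of ELAC1. The number of neighbours without overlap was 3 to 4 with each library left out, 4 only without library 24. The median log2 difference of expressed genes near SMAD4 was -1.01 with a pseudocount of 0.1, -1.01 without one, and -0.39 without the filter (41 genes). DESeq2 called 2 genes between the labels, while leaving out each library gave 0 to 0 calls by edgeR. Between the labels, the log2 differences of MBD2 (-0.07 to 0.02) and POLI (-0.20 to 0.00046) changed sign with single libraries left out, and the other tested members kept theirs. The log2 differences of the 4 off genes depended on the pseudocount and scale (SMAD4 -8.18 with 0.1, -6.37 with TMM-scaled CPM), as their low levels lie near 0.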

Other observations

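Contiguous off genes of the same kind were also present elsewhere, but few runs were as long. Among 14617 protein-coding genes that reached 1 TPM in at least 1 library, 237 were off in the 12 libraries and on in the 14. In map order with silent genes left out, they formed 208 runs, 184 of them of a single gene and 21 of 2 genes. SMAD4 is off in the 12 by the division itself. With it, the run of ME2, ELAC1, SMAD4 and MEX3C was 1 of 2 with 4 genes, and none was longer. The other, of 271 kb on chromosome 21, held RIPK4, PRDM15, C2CD2 and ZBTB21. A run of 3 genes, VSIR, PSAP and CHST3, spanned 266 kb on chromosome 10. These runs were counted after the pattern had been seen and carry no test.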
